A study of Arabidopsis thaliana with 24 samples.

Results

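The plastid genome of Arabidopsis encodes part of the photosynthetic machinery, and 44 of its genes are described here: 5 of photosystem I (psa), 15 of photosystem II (psb), 6 of the cytochrome b6f complex (pet), 6 of the chloroplast ATP synthase (atp), 11 of the chloroplast NDH complex (ndh) and rbcL, which encodes the large subunit of Rubisco. A gene was taken when it lay on the plastid chromosome and its symbol was the only one given for a probe set, the unit in which the ATH1 array measures a transcript. All 44 had such a probe set, among 22746 probe sets that were no controls. The probe set of ndhB stands for 2 identical copies of that gene in the inverted repeat of the plastid genome. The rule itself uses annotation and no signal.

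Wild type plants and the nas4x-1 mutant, both of ecotype Columbia, were grown in hydroponic culture at 10 µM FeNa-EDTA. For the last 7 days they stayed in that medium (+ Fe) or were moved to 0 µM (- Fe), and rosette leaves and roots were harvested at an age of 5 weeks. The nas4x-1 line carries T-DNA insertions in the 4 genes for nicotianamine synthase, an enzyme that makes a chelator of Fe and other metals. The 2 genotypes, 2 Fe supplies and 2 organs form 8 groups of 3 arrays, 24 in all. The 3 arrays of a group are repetitions of the whole experiment in 3 consecutive weeks. The replicate number was therefore taken as a harvest that all groups share, although the sample labels name no week. None of the 4 nicotianamine synthase genes was matched to a probe set of its own in the annotation used here, which names only part of the array. The mutation was therefore not checked in the signals.

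Chloroplasts split the labour of building the photosynthetic complexes. The reaction centre proteins and many small subunits are plastid-encoded, whereas the antenna proteins and the other subunits come from nuclear genes. Plastid genes lie in clusters that are transcribed together, by an RNA polymerase that is itself plastid-encoded and needs nuclear sigma factors, and by a nuclear-encoded enzyme. Fe is a cofactor of both photosystems, of cytochrome b6f and of the NDH complex, and shortage of Fe is known for pale, chlorotic leaves. Plastid mRNAs mostly lack the stable poly(A) tail of nuclear mRNAs, and the labelling kit used here primes with oligo(dT). How this affects the signals was not tested.

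The arrays of each group resembled each other closely (Pearson r over all probe sets 0.957 to 0.979 in leaves and 0.947 to 0.988 in roots, on log2 signals). Arrays had the same maximum of 7304 and medians between 37.8 and 38.03, because the signals had been normalized to one distribution. The summed signal of 3 matched leaf markers was 7050 to 9894 in leaves and 42.3 to 120 in roots. That of 2 matched root markers was 4.30 to 25.7 in leaves and 149 to 451 in roots. Each organ thus carried its own markers. In bulk tissue, fewer plastids or cells and less RNA per plastid or cell cannot be told apart. Probe sets differ in how brightly they report the same amount of RNA, so signals of different genes are not compared as amounts of RNA.

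All 44 genes had higher mean signals in leaves than in roots. For 42 genes the 12 leaf arrays lay above all 12 root arrays, which held for 13.1% of all probe sets. The exceptions, ndhB and ndhF, encode subunits of the NDH complex and were dim in both organs. The signal of ndhF stayed between 0.500 and 14.1 in leaves and between 0.238 and 4.42 in roots. In 26 genes no root array fell under 16, the offset added before taking logarithms, and their mean leaf signal was 5.71 to 61.5 times their mean root signal, with a median of 12.1. Root signals of 13 genes were under 16 on every array and those of 5 genes on some, and no ratio is given for them.

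**Figure D1:**
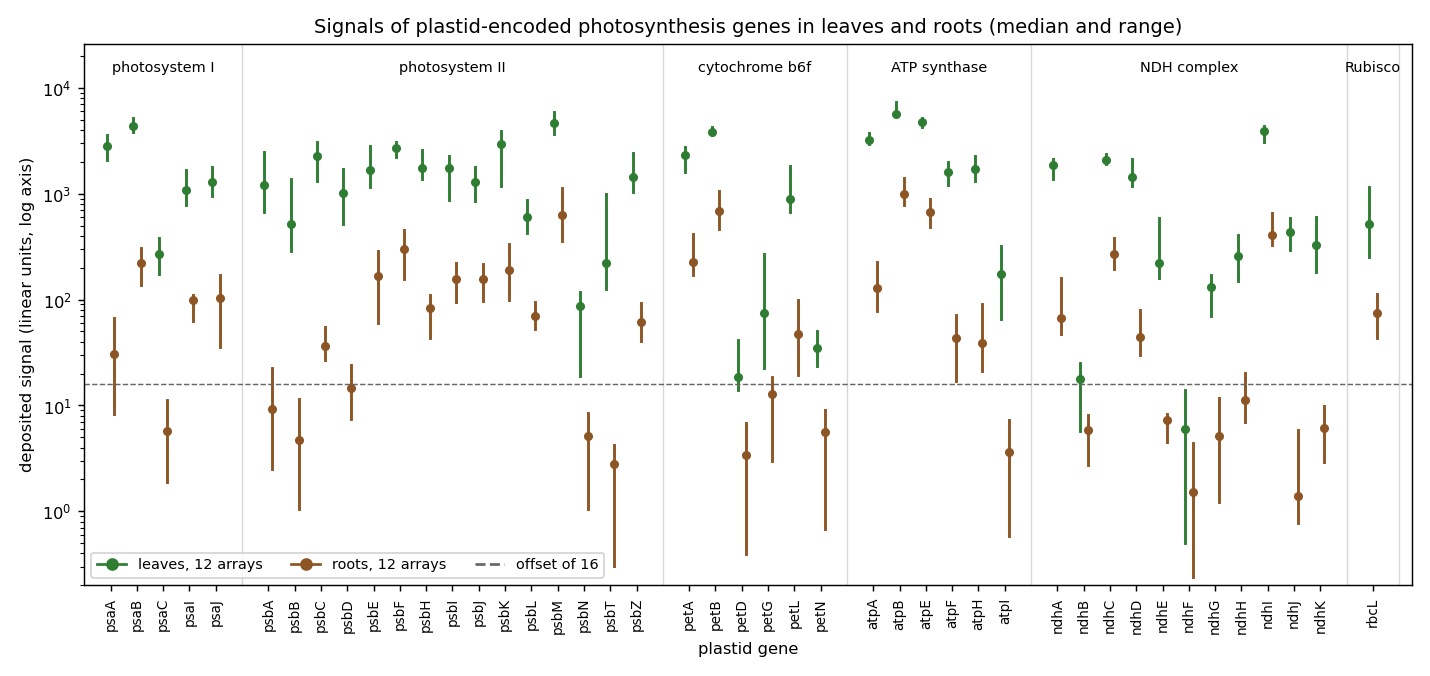
Deposited signal (log axis) of each plastid gene in leaves (green) and roots (brown), as the median (point) and range (line) of 12 arrays per organ, grouped by complex; the dashed line is the offset of 16. Leaf and root ranges overlap for ndhB and ndhF only, and heights of different genes cannot be compared.

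With limma, an adjusted p under 0.05 was reached by 43 of 44 genes in wild type at + Fe, 44 in wild type at - Fe, 43 in nas4x-1 at + Fe and 43 in nas4x-1 at - Fe. Of all probe sets, 20.3%, 19.7%, 20.2% and 19.7% passed as higher in leaves in these comparisons. The gene that missed the threshold was ndhF each time (adjusted p = 0.448, 0.296 and 0.142). The median log2 fold change of the 44 genes was 3.37, 3.39, 3.35 and 3.39, against -0.01, -0.02, -0.01 and -0.04 over all probe sets. By complex, in wild type at + Fe, it was 3.72 for photosystem I, 3.60 for photosystem II, 3.71 for ATP synthase, 3.19 for the NDH complex and 2.62 for rbcL. The median of the cytochrome b6f genes lay below the value of rbcL. Among them petN had the lowest value, at 1.35 ± 0.14 (SE), and petB had 2.37. Root signals of petN and petD were under 16 on all 12 arrays and those of petG on 10. These log2 fold changes are on the scale of log2(signal + 16), which understates those of dim genes.

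Single genes show the size of the contrast. psaB, a core protein of the photosystem I reaction centre, had signals of 3818 to 5247 in leaves (median 4388) and 137 to 310 in roots (median 222). psbM, a small subunit of photosystem II, had 3672 to 5922 in leaves (median 4624) and 360 to 1128 in roots (median 630). petB, which encodes cytochrome b6, had 3585 to 4292 in leaves (median 3867) and 467 to 1054 in roots (median 680). In each case the lowest leaf array stood several times above the highest root array. atpB, the catalytic beta subunit of ATP synthase, had 5505 to 7304 in leaves (median 5643) and 783 to 1395 in roots (median 996). ndhI, an NDH subunit with iron-sulfur clusters, had 3061 to 4346 in leaves (median 3913) and 327 to 659 in roots (median 410). rbcL had 253 to 1154 in leaves (median 513) and 43.3 to 113 in roots (median 74.9). The leaf to root ratios of means were 20.1 for psaB, 6.87 for psbM, 5.71 for petB, 5.76 for atpB, 9.0 for ndhI and 7.66 for rbcL. ndhB had 5.70 to 25.2 in leaves (median 17.7) and 2.75 to 8.20 in roots (median 5.83).

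Genes of other classes gave the leaf to root contrast a frame. The 7 matched nuclear genes of photosystem and antenna subunits (of 43 listed) all passed as higher in leaves, with a median log2 fold change of 6.20 in wild type at + Fe. The 31 other plastid genes matched to a probe set (of 34), which encode ribosomal proteins, RNA polymerase subunits and others, were all above 0 and 30 passed, with a median of 1.87. Of 18 probe sets of 11 mitochondrion-encoded genes, 2 passed as higher and 1 as lower in leaves, with a median of 0.28. The differences between these classes were not tested.

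Whether Fe supply or genotype changed the plastid genes within an organ was asked in 8 comparisons and 2 interactions. No gene passed the adjusted threshold in any of them with limma, nor in the fit with the replicate block, nor with an analysis of variance built after the study's description. In leaves the lowest adjusted p among the 44 genes was 0.706 for wild type, - Fe vs. + Fe, 0.59 for nas4x-1, - Fe vs. + Fe, 0.92 for nas4x-1 vs. wild type at + Fe and 0.292 for nas4x-1 vs. wild type at - Fe. Calls over all probe sets were rare too, at 0.176%, 0.0659%, 0.0264% and 0.0659%. The 95% interval of a log2 fold change had a median half-width of 0.51 for the 44 genes in leaves. That interval is not adjusted for the number of probe sets. Larger changes missed the adjusted threshold too, as psbA did at -1.02 for nas4x-1 vs. wild type at - Fe. The lack of calls therefore does not exclude changes above 0.51.

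**Figure D2:**
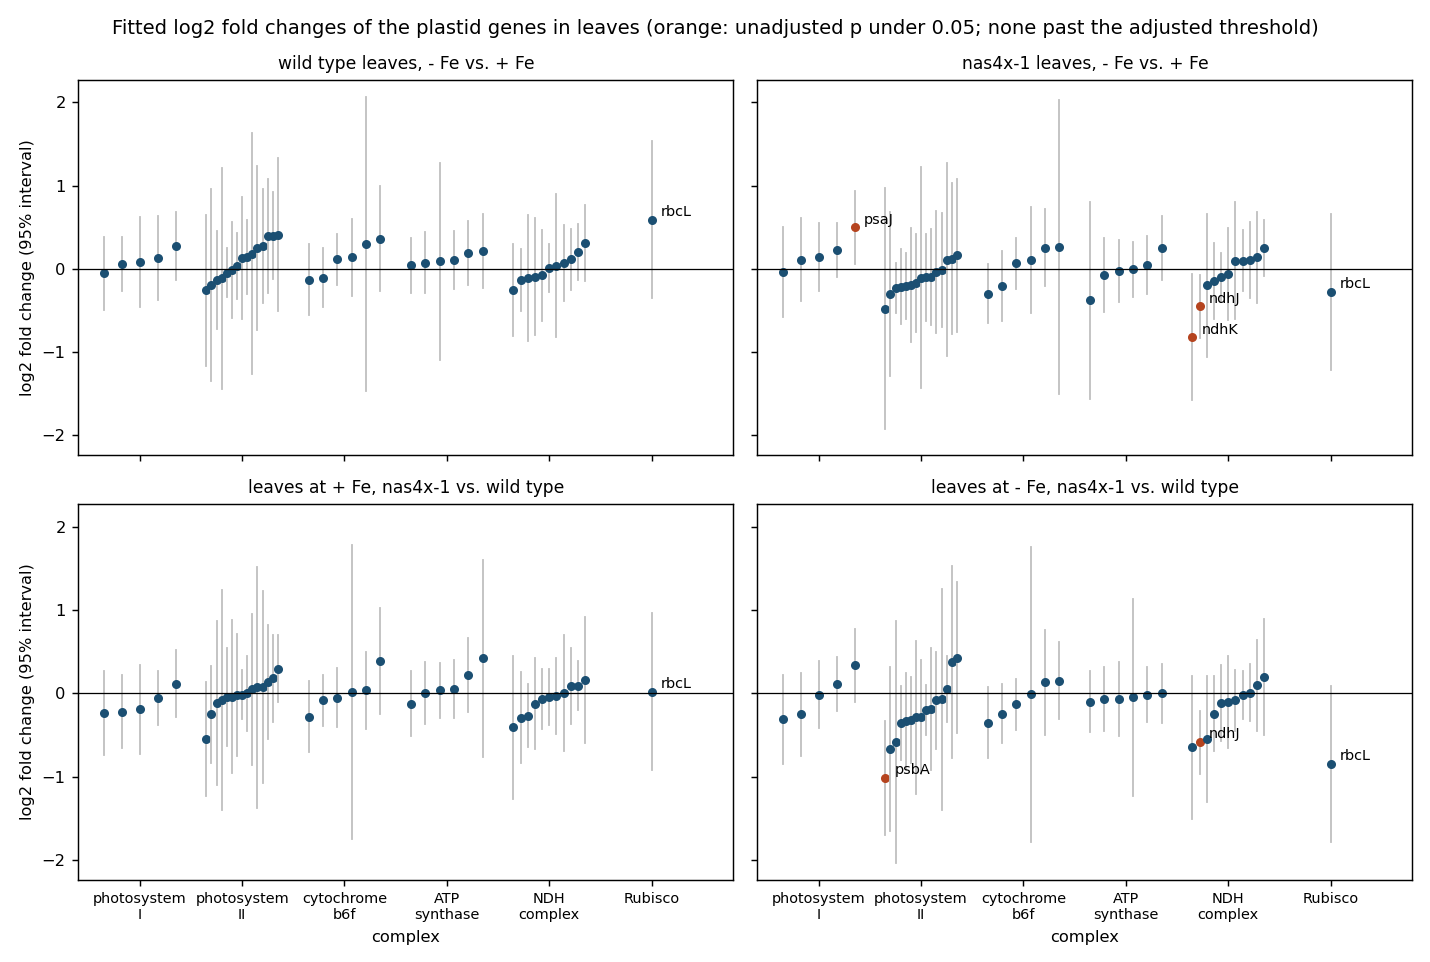
Log2 fold change (log2(signal + 16), limma) of each plastid gene with its 95% interval, by complex, in the 4 leaf comparisons; within a complex, genes are ordered by value. Points near 0 dominate each panel, and the lowest is psbA at -1.02 for nas4x-1 vs. wild type at - Fe.

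In wild type leaves, - Fe vs. + Fe, the 44 genes had a median log2 fold change of 0.09, with 30 above 0 and 14 below, against -0.02 over all probe sets. At an unadjusted p under 0.05 there was no gene among the 44, where 8.73% of all probe sets passed. With the replicate block 3 of the 44 genes and 13.5% of all probe sets did. In all 3 harvests 12 genes were higher and 0 lower at - Fe. Among all probe sets these shares were 17.3% and 21.5%. All 6 ATP synthase genes lay above 0, between 0.04 and 0.21. The median was 0.13 for photosystem II, 0.13 for cytochrome b6f, 0.08 for photosystem I and 0.01 for the NDH complex. Without the wild type - Fe array of harvest 3 the median of the 44 genes was -0.05, so its sign changed. The + Fe array of harvest 3 stayed in, which left the harvests unequal between the groups.

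In nas4x-1 leaves, - Fe vs. + Fe, the median was -0.04, with 18 genes above 0 and 26 below, against 0.00 over all probe sets. At an unadjusted p under 0.05 psaJ was higher and ndhJ and ndhK were lower, 3 of 44 genes, where 7.49% of all probe sets passed. In all 3 harvests 3 genes were higher and 7 lower, against 15.7% and 16.1% of all probe sets. Photosystem II genes had a median of -0.10, with 12 of 15 below 0, and photosystem I genes one of 0.14, with 4 of 5 above 0.

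At + Fe, nas4x-1 vs. wild type in leaves gave a median of -0.02, with 20 genes above 0 and 24 below. At an unadjusted p under 0.05 there was no gene, where 5.64% of all probe sets passed, and in all 3 harvests 4 genes were higher and 8 lower, against 15.4% and 16% of all probe sets. At - Fe the same contrast of genotypes had a median of -0.10, with 10 genes above 0 and 34 below, while 10979 of all 22746 probe sets were below 0. At an unadjusted p under 0.05 psbA and ndhJ were lower, 2 of 44 genes, where 9.17% passed, and in all 3 harvests 2 genes were higher and 11 lower, against 18.6% and 16.8%. Photosystem II had 12 of 15 genes below 0 with a median of -0.28, and ATP synthase had 6 of 6 below 0, but only down to -0.10. Without the wild type - Fe array of harvest 3, and with the nas4x-1 array of that harvest kept, the median was 0.02. The 4 comparisons share arrays, and the wild type - Fe arrays enter 2 of them.

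The wild type - Fe leaf array of harvest 3 stood above the others in the plastid genes as a whole. The median signal of the 44 genes was 1732 on it, against 1096 to 1465 on the other 11 leaf arrays. Its leaf markers summed to 9094 and its root markers to 15.4, both inside the range of the other leaf arrays.

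A term for genotype by Fe supply (interaction) in leaves asked whether the response to - Fe differed between nas4x-1 and wild type. The median of the 44 genes was -0.12, with 11 above 0 and 33 below, against 0.01 over all probe sets. The high wild type - Fe array described above enters this term as well, and the median without it is not given. No gene passed the adjusted threshold (lowest adjusted p = 0.894, with 0.0615% of all probe sets called). At an unadjusted p under 0.05 the plastid genes gave no call, where 5.72% of all probe sets passed. With the replicate block 3 of the 44 genes and 8.9% of all probe sets did.

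psbA encodes the D1 protein of the photosystem II reaction centre, which turns over fastest of its proteins in light. Its signals in wild type leaves were 2049, 1223 and 1421 at + Fe and 2162, 1177 and 2480 at - Fe, in the order of harvests 1, 2 and 3. In nas4x-1 leaves they were 1144, 768 and 1284 at + Fe and 1107, 998 and 669 at - Fe. Within each harvest nas4x-1 was lower than wild type at both Fe supplies, and at - Fe all 3 nas4x-1 arrays lay below all 3 wild type arrays. The log2 fold change of nas4x-1 vs. wild type was -0.55 ± 0.31 (SE, n = 3 per group, adjusted p = 0.92) at + Fe and -1.02 ± 0.31 (95% interval -1.71 to -0.33, adjusted p = 0.319) at - Fe. Over the 44 genes and the 4 leaf comparisons, it was the only change whose size exceeded 1. With the replicate block the adjusted p at - Fe was 0.131, and leaving out single arrays moved the change between -1.34 and -0.80. The response of psbA to - Fe was 0.28 in wild type and -0.20 in nas4x-1, and the interaction of -0.47 did not pass (adjusted p = 0.999).

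psbM read 3672, 4589 and 4881 in wild type leaves at + Fe and 4084, 4770 and 4509 at - Fe. In nas4x-1 it read 4659, 5922 and 5505 at + Fe and 4084, 4589 and 5247 at - Fe. The nas4x-1 + Fe arrays were the highest of each harvest, but the groups overlapped. The log2 fold changes lay between -0.21 and 0.30, and all 4 intervals included 0.

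rbcL had a wide spread between harvests. Its leaf signals were 610, 253 and 738 in wild type at + Fe and 446, 781 and 1154 at - Fe. In nas4x-1 they were 554, 308 and 702 at + Fe and 471, 325 and 431 at - Fe. Wild type at - Fe was thus high in harvests 2 and 3 and low in harvest 1, where it lay below nas4x-1. The log2 fold change at - Fe, nas4x-1 vs. wild type, was -0.85 ± 0.43 (95% interval -1.79 to 0.09, adjusted p = 0.599), and without the wild type array of harvest 3 it was -0.53. At + Fe it was 0.02 ± 0.43.

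**Figure D3:**
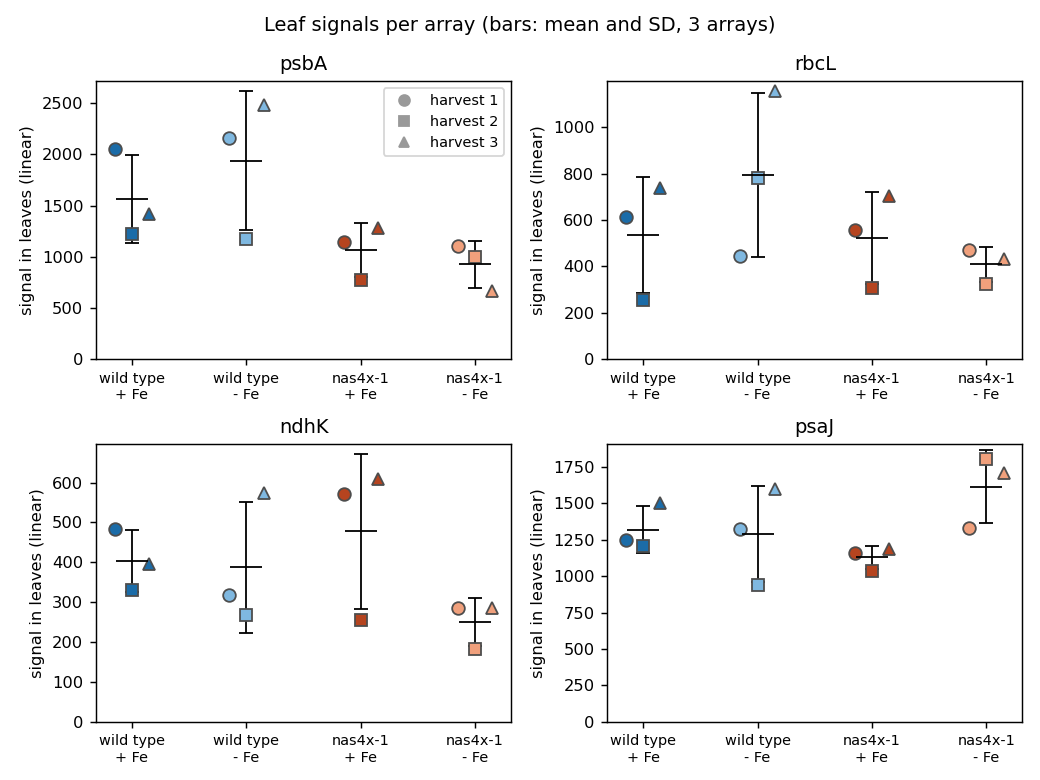
Deposited leaf signal (linear axis from 0) of psbA, rbcL, ndhK and psaJ on each array, by genotype and Fe supply; symbols mark the harvest and bars the mean and SD of 3 arrays. At - Fe the psbA signals of nas4x-1 (669 to 1107) lie below those of wild type (1177 to 2480), whereas the groups of rbcL overlap.

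Among photosystem I genes, psaJ, a small membrane subunit, had the largest change. In nas4x-1 leaves its signals were 1160, 1038 and 1189 at + Fe and 1332, 1804 and 1709 at - Fe. In wild type they were 1247, 1205 and 1506 at + Fe and 1328, 943 and 1601 at - Fe. The nas4x-1 groups did not overlap, and the wild type groups did. The log2 fold change of - Fe vs. + Fe was 0.50 ± 0.20 (SE) in nas4x-1 (adjusted p = 0.607) and -0.06 ± 0.20 in wild type (adjusted p = 0.975), and the difference of 0.56 did not pass (adjusted p = 0.894).

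psaA and psaB encode the paired core proteins that hold the reaction centre chlorophylls. psaA read 2843, 2101 and 2663 in wild type leaves at + Fe and 3234, 2586 and 3266 at - Fe. The nas4x-1 arrays read 2906, 2408 and 2869 at + Fe and 2586, 3585 and 2938 at - Fe. In wild type the - Fe array was the higher one in each harvest, although the groups overlapped, and the log2 fold change was 0.27 (95% interval -0.13 to 0.68, adjusted p = 0.755). psaB read 4436, 4121 and 4181 in wild type at + Fe and 4465, 4410 and 4366 at - Fe. Its nas4x-1 signals were 4036, 3818 and 4410 at + Fe and 5247, 4735 and 4346 at - Fe. Its highest leaf signals were those of nas4x-1 at - Fe in harvests 1 and 2, and in harvest 3 nas4x-1 was slightly lower at - Fe than at + Fe.

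The Fe-containing cytochrome b6f complex gave small differences. petA, which encodes cytochrome f, read 2202, 1593 and 2336 in wild type leaves at + Fe and 2352, 1954 and 2370 at - Fe. For nas4x-1 the signals were 2012, 1604 and 2748 at + Fe and 2636, 2278 and 2499 at - Fe. The + Fe arrays of harvest 2 were the lowest in both genotypes. petB read 4036, 3960 and 3753 in wild type at + Fe and 4121, 4265 and 4292 at - Fe, without overlap. The mutant had 3775, 3753 and 3585 at + Fe and 4217, 3672 and 3672 at - Fe, with overlap. For both genes the 95% intervals of the log2 fold change included 0 in the 4 leaf comparisons. That of petB for - Fe vs. + Fe ran from -0.19 to 0.42 in wild type and from -0.24 to 0.37 in nas4x-1.

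ATP synthase genes differed little between groups too. atpB read 5505, 5505 and 6403 in wild type leaves at + Fe and 5643, 5505 and 7304 at - Fe. In nas4x-1 it read 6115, 5643 and 5643 at + Fe and 5643, 5922 and 5505 at - Fe. Equal values recur because the normalization gives bright probe sets stepped values. The log2 fold change of atpB for - Fe vs. + Fe was 0.08 in wild type and -0.03 in nas4x-1. atpH, the subunit of the membrane ring, read 1715, 1382 and 1460 in wild type at + Fe and 1896, 1497 and 1886 at - Fe. The nas4x-1 arrays read 1822, 1328 and 2278 at + Fe and 1715, 1854 and 1471 at - Fe. All of its groups overlapped.

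The NDH complex carries electrons around photosystem I. ndhK and ndhJ, neighbours in one cluster with ndhC, encode subunits of the arm that receives the electrons. In nas4x-1 leaves ndhK had signals of 571, 254 and 610 at + Fe and 285, 182 and 285 at - Fe, lower at - Fe in every harvest. Its groups overlapped only through the + Fe array of harvest 2. The log2 fold change was -0.82 ± 0.35 (adjusted p = 0.632, and 0.144 with the replicate block) in nas4x-1 and -0.11 ± 0.35 in wild type, where the signals were 484, 331 and 395 at + Fe and 319, 269 and 574 at - Fe. ndhJ had 341, 302 and 293 in nas4x-1 at - Fe, against 415, 434 and 596 in wild type at - Fe, with no overlap (log2 fold change -0.59 ± 0.17, adjusted p = 0.292). In nas4x-1 at + Fe it read 519, 349 and 442. In nas4x-1, - Fe vs. + Fe, its log2 fold change was -0.45 ± 0.17 (adjusted p = 0.59). ndhJ, psbT, petN and atpI are named outside the rule for named genes, after their values were seen.

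ndhI read 3630, 3556 and 4154 in wild type leaves at + Fe and 3998, 3960 and 4265 at - Fe. Its nas4x-1 signals were 3960, 3061 and 3775 at + Fe and 3397, 4346 and 3865 at - Fe. The groups overlapped, and harvest 2 of nas4x-1 held both the lowest and the highest signal. ndhB, close to the offset, read 17.2, 13.8 and 23.7 in wild type at + Fe and 14.0, 11.1 and 25.2 at - Fe. For nas4x-1 the signals were 18.2, 5.70 and 25.0 at + Fe and 23.5, 11.5 and 21.4 at - Fe. In each group its lowest signal was that of harvest 2.

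In roots the plastid genes were dim, and the same questions gave equally little. The lowest adjusted p was 1 in all 4 comparisons and in the interaction. Over all probe sets 0% passed the adjusted threshold in wild type, - Fe vs. + Fe, 0.0132% in nas4x-1, - Fe vs. + Fe, 0.0703% for nas4x-1 vs. wild type at + Fe, 0.0747% at - Fe and 0% in the interaction. The medians of the 44 genes were -0.12, 0.00, -0.07, 0.03 and 0.05, in that order. At an unadjusted p under 0.05 psbA was lower in wild type at - Fe, 1 of 44 genes, where 4.39% of all probe sets passed. In nas4x-1 petN was higher and psbT lower at - Fe, where 3.61% passed. For nas4x-1 vs. wild type, petA, petN and atpI were lower at + Fe, where 1.96% passed, and at - Fe petN was higher and psbT and atpI lower, where 2.65% passed. In the interaction petN was above 0 and psbT below, where 1.53% passed. The root signals of petN, psbT and atpI stayed under 16 on all 12 arrays, and those of psbA on 11 of the 12.

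petA was the only one of these genes with clear root signal. It read 419, 222 and 263 in wild type roots at + Fe, 265, 218 and 243 at - Fe, 220, 172 and 213 in nas4x-1 at + Fe and 328, 209 and 228 at - Fe. The wild type + Fe array of harvest 1 was the highest, and at + Fe every nas4x-1 array lay below every wild type array. The log2 fold change at + Fe, nas4x-1 vs. wild type, was -0.50 ± 0.23 (adjusted p = 1). atpH read 90.8, 46.3 and 42.4 in wild type roots at + Fe and 32.5, 60.9 and 21.3 in nas4x-1 at + Fe, and its groups overlapped (log2 fold change -0.49).

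The harvest, in contrast, separated arrays for many plastid genes. Arrays of one harvest but different groups deviated together from their group means over all probe sets (r 0.172 to 0.505 in leaves and 0.212 to 0.64 in roots), whereas arrays of different harvests and groups did so at most at 0.121 and 0.211. An F-test of the harvest in limma, chosen after the data were seen, gave 9 of 44 genes in leaves, where 7.11% of all probe sets passed, and 12 of 44 in roots, where 13.3% passed. In leaves 7 of the 9 were photosystem II genes, of 15 in that complex. Harvests are numbered as the replicates are, and plants, solutions and array processing of a harvest cannot be told apart.

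In leaves petG, psbD, psbI, psbK, psbN and psbT passed in the main fit and in all 16 alternative fits, which include leaving out each of the 12 arrays. psbK and psbI, neighbours that encode small subunits of photosystem II, were low in harvest 1. psbK read 1314, 1177, 1491 and 1538 there, in the order wild type at + Fe and - Fe and nas4x-1 at + Fe and - Fe. In harvest 2 it read 3000, 1907, 2869 and 3556, and in harvest 3 it read 3397, 3929, 3649 and 3609. All 4 arrays of harvest 1 lay below the other 8, and the difference of harvest 3 from harvest 1 was 1.40 on the log2 scale (adjusted p = 0.00298). psbI had means of 1048, 1715 and 2200 in harvests 1, 2 and 3 (adjusted p = 0.0105). petG, a small subunit of cytochrome b6f, had means of 28.1, 77.2 and 199 (adjusted p = 0.00165), and no arrays of different harvests overlapped.

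Other genes had another order of harvests. psbN, which lies on the opposite strand within the psbB cluster and is needed to assemble photosystem II in tobacco, was low in harvest 2. It read 27.8, 21.6, 18.9 and 27.9 there, against 70.2 to 118 in harvest 1 and 85.1 to 106 in harvest 3 (adjusted p = 0.0018). psbD, which encodes the D2 reaction centre protein, had means of 1539, 709 and 1091 in harvests 1, 2 and 3 (adjusted p = 0.00915), and psbC, the antenna protein CP43 encoded beside it, had 2775, 1653 and 2412 (adjusted p = 0.0341). psbT was high in harvest 3, at 392, 1001, 479 and 402 in the same order of groups, against 127 to 313 in the other harvests (adjusted p = 0.0145). psbZ, at 1247, 1394 and 2188, and ndhB, at 18.2, 10.5 and 23.8, also passed (adjusted p = 0.0188 and 0.0462). Of the 16 alternative fits, psbZ passed in 13, psbC in 7 and ndhB in 4, so the calls of psbC and ndhB were lost in most of them. Over all 44 genes, harvest 2 gave the lowest leaf mean for 28 genes and harvest 3 the highest for 27, against 30.8% and 32% of all probe sets.

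**Figure D4:**
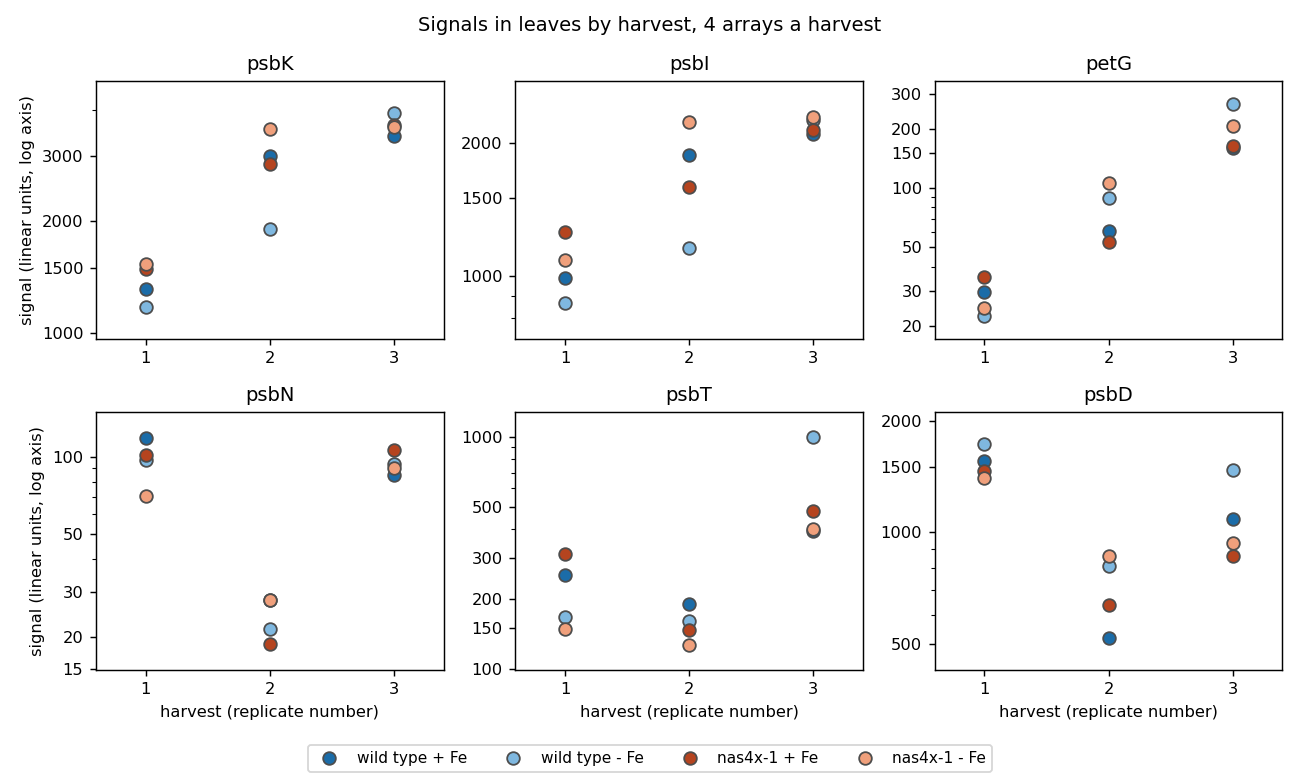
Deposited leaf signal (log axis) of the 6 genes that passed in every fit, by harvest, with 1 point for each of the 4 groups. The means of psbK, psbI and petG are lowest in harvest 1 and those of psbN and psbD in harvest 2, and all 4 points of psbT are highest in harvest 3.

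psaA, psaB, atpB and rbcL did not pass in leaves (adjusted p = 0.747, 0.867, 0.781 and 0.161). None of the 5 photosystem I genes and none of the 6 ATP synthase genes passed, and 1 of 11 NDH genes did. Whether the share of photosystem II genes differs from that of the other complexes was not tested. Of the 31 other plastid genes 9 passed in leaves, and of 18 mitochondrial probe sets 4. The 7 nuclear photosystem genes gave no call.

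In roots harvest 3 was the lowest for 30 of the 44 genes, against 34% of all probe sets. That count includes dim genes, since 13 of the 44, psbN among them, were under 16 on every root array and 5 on some. psbE and psbF, the subunits of cytochrome b559 of photosystem II, had means of 210, 162 and 78.4 and of 339, 327 and 195 in harvests 1, 2 and 3 (adjusted p = 0.00489 and 0.0108). petB had 807, 776 and 478 (adjusted p = 0.0181), atpF, of the ATP synthase stalk, had 47.1, 54.1 and 22.7 (adjusted p = 0.0144), and rbcL had 73.2, 101 and 46.7 (adjusted p = 0.00326). In these 5 genes all 4 root arrays of harvest 3 lay below the other 8. ndhC ran the other way, at 257, 221 and 352 (adjusted p = 0.0259). psbK was low in harvest 3 of roots (195, 282 and 114, adjusted p = 0.0115), the harvest in which its leaf mean was highest. petL, psbH, psaA, petA and psbN passed too, but in 15, 9, 8, 5 and 3 of the 16 alternative fits. petB passed in 14 and ndhC in 10 of them. In roots atpF, psbE, psbF, psbK and rbcL passed in all 16 alternative fits. The count fell to 6 without the nas4x-1 + Fe or the wild type + Fe array of harvest 3, and to 7 without the wild type + Fe array of harvest 2 or the wild type - Fe array of harvest 3. Of the 31 other plastid genes 11 passed in roots, of 18 mitochondrial probe sets 3 and of the 7 nuclear photosystem genes 1.

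The leaf marker sum moved with the harvests of roots. It was 80.0 to 119 in harvest 1, 73.4 to 120 in harvest 2 and 42.3 to 54.7 in harvest 3, where the sum of both root markers ranged from 299.6 to 451, against 149 to 219 in harvest 1 and 196 to 410 in harvest 2. The part of these shifts in the root signals of the plastid genes was not tested. In leaves the leaf marker sum was 8439 to 9894 in harvest 1, 7050 to 9453 in harvest 2 and 8449 to 9612 in harvest 3, with overlap among all of them.

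**Figure D5:**
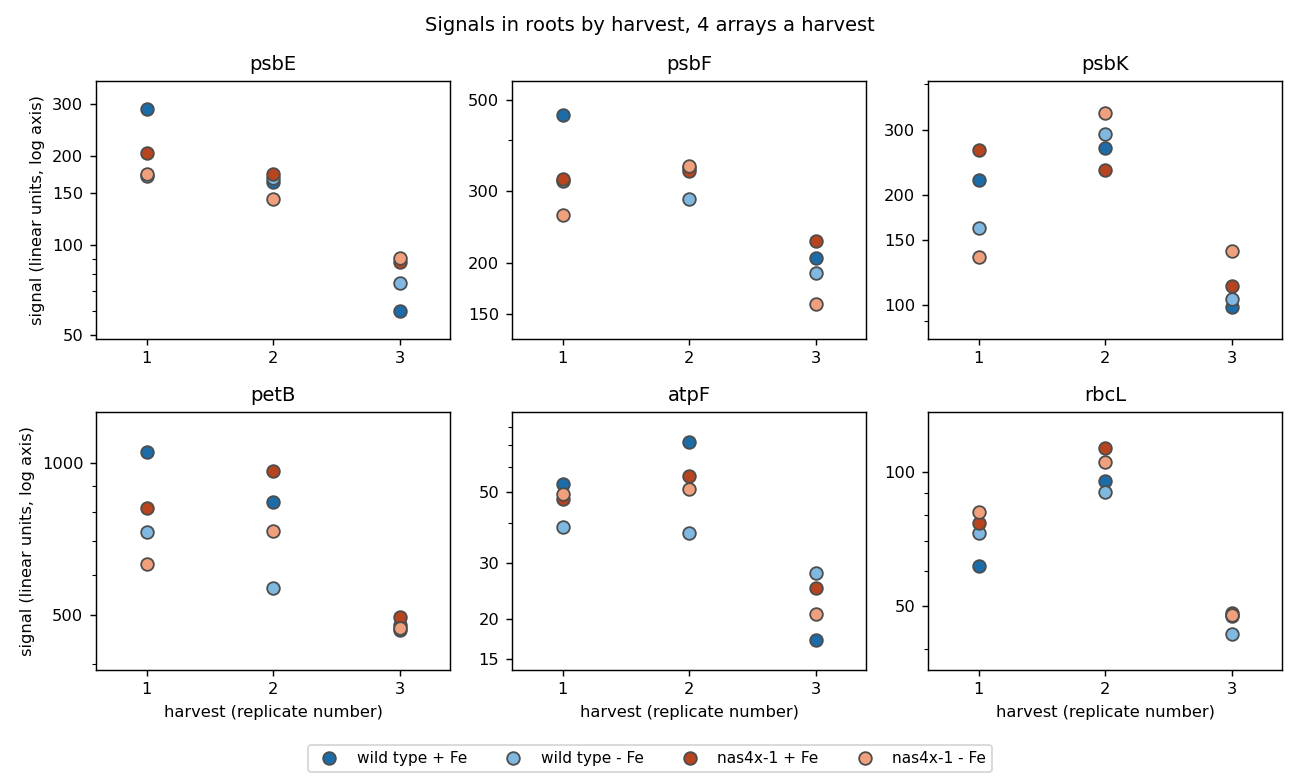
Deposited root signal (log axis) of 6 plastid genes by harvest, with 1 point for each of the 4 groups. For psbE, psbF, petB, atpF and rbcL the 4 points of harvest 3 lie below those of both other harvests, while psbK overlaps between harvests 1 and 3.

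Neighbours in a gene cluster were compared for shared deviations. After the group means were removed, psbK and psbI correlated over the 12 leaf arrays at r = 0.982, psbD and psbC at 0.915, and psbB and psbT at 0.901. The same pairs gave 0.612, 0.162 and -0.282 over the 12 root arrays, where psbB and psbT were under 16 throughout and psbD on 8 arrays. atpB and atpE, whose coding regions overlap, gave 0.604 in leaves and 0.718 in roots. psaA and psaB gave 0.118 in leaves and 0.598 in roots, and petL and petG gave -0.182 and 0.633. In roots petG was under 16 on 10 arrays and psaA on 2. Over 54 pairs within a cluster the median r was 0.403 in leaves and 0.453 in roots, and over 892 pairs of genes in different clusters 0.345 and 0.213. These values include the shared harvests and are given as a description.

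Nuclear partners of the plastid genes were examined in leaves. None of the matched genes of chlorophyll synthesis (3 of 14) or of the nuclear photosystem and antenna subunits (7 of 43) or the other nuclear subunits (4 of 19) passed the adjusted threshold within leaves, and none of the 6 sigma factors was matched to a probe set in the annotation used here. CHLI2, a subunit of Mg-chelatase, had a log2 fold change of 0.69 ± 0.24 for nas4x-1 vs. wild type at - Fe (adjusted p = 0.388), and PSAN, of photosystem I, had -0.56 ± 0.20 for - Fe vs. + Fe in nas4x-1 (adjusted p = 0.546). At - Fe, nas4x-1 vs. wild type, the 31 other plastid genes had a median of 0.21, with 23 above 0 and 8 below, where the 44 photosynthesis genes had -0.10. The latter median changed sign without the wild type - Fe array of harvest 3, and the difference between these classes was not tested. The 18 mitochondrial probe sets had -0.30, with 15 below 0.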

How the data were processed

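Signals of 24 Affymetrix ATH1 arrays were analysed. The authors computed the deposited intensities with MAS 5.1 in GCOS, scaled them to a common target and made the distributions of the 24 arrays equal by quantile normalization, and the values are linear. Scan batches were not given in the sources used here. Controls (64 of 22810 probe sets) were removed. Genes were named from the platform annotation, which listed 13523 probe sets, and RefSeq (TAIR10.1).

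For comparisons within an organ, signals were normalized again over its 12 arrays, which moved no signal by more than 0.0509 on the log2 scale. After adding an offset of 16, log2 signals entered limma (version 3.58.1, R version 4.3.3). The prior variance followed the mean signal, and p-values were adjusted after Benjamini and Hochberg over 22746 probe sets (threshold 0.05). Leaves vs. roots used signals as deposited. Printed signals are the deposited ones. The fit was also run on simulated signals with known changes, which held no shared harvest effect and so could not test how the fit handles one. The number of arrays limits the precision.

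The genes, gene lists and tests were chosen with earlier results of these data known. Leaf values of every array were printed for the genes with the largest change or the highest leaf signal of a complex (a rule for choosing examples), and for psaA, psbA, petB, atpB, ndhB and rbcL. Genes of the harvest test and others with a low unadjusted p were named after their values were seen. Replicate numbers were taken to pair the arrays, which the labels do not state. The experiment was repeated in consecutive weeks, and same-numbered arrays of different groups deviated together (r 0.172 to 0.64). Alternatives were other offsets, other scaling, a filter on dim probe sets, the replicate block, no variance trend, another error model, the compared groups alone and leaving out each array.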

Additional observations from a re-analysis of the deposited data

Results flagged for a closer look

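Over 8 pairs of comparisons there were 16 cases, in 6 of the pairs, of a plastid gene whose difference had one sign in all 3 harvests of one comparison and the opposite sign in all 3 of the other. That is 4.55% of the cases possible for the 44 genes, against 3.5% over all probe sets, so such cases were about as frequent as in the background. The values are differences of the 2 log2 fold changes. Between genotypes, the response to - Fe in roots differed by 0.22 for psbT, -0.55 for petA and -0.48 for petN (wild type minus nas4x-1). Between Fe supplies, nas4x-1 vs. wild type in roots differed by 0.22 for psbT and -0.48 for petN (+ Fe minus - Fe). For these 3 genes the interaction term of limma was the test, and its adjusted p was 1.

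The other differences are between organs and were not tested. For - Fe vs. + Fe in wild type, leaves minus roots, they were 0.54 for psaB, 0.40 for petA, 0.66 for atpH and 0.37 for ndhI, each above 0 in leaves and below 0 in roots. For - Fe vs. + Fe in nas4x-1 they were -0.21 for petD and -0.63 for petN. For nas4x-1 vs. wild type they were -0.51 for petD, 0.86 for petL and 0.66 for atpI at + Fe, and -0.47 for psaC and -0.44 for psbC at - Fe. Root signals of psbT, petN, petD, atpI and psaC were under 16 on all 12 arrays.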

How the results depend on the processing

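Over 206 alternative counts of genes past the threshold, all stayed within 1.5 times of the reported count, and each was 0 within an organ. With the replicate block, by which the harvests pair the arrays, the calls over all probe sets in leaves went from 40 to 275 for wild type, - Fe vs. + Fe, from 15 to 128 for nas4x-1, - Fe vs. + Fe, from 6 to 17 for nas4x-1 vs. wild type at + Fe and from 15 to 26 at - Fe. None of these calls was a plastid photosynthesis gene. The lowest adjusted p of these genes with the block was 0.131, for psbA between the genotypes in leaves at - Fe, where 6 of the 44 genes and 13.9% of all probe sets had an unadjusted p under 0.05.

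For leaves vs. roots the median log2 fold change of the 44 genes rose with an offset of 1 to 3.90 and 4.03 in wild type at + Fe and - Fe and to 3.98 and 4.06 in nas4x-1. An offset of 1 shrinks fold changes of dim genes less than one of 16. With the error model after the study's description, which has no offset, it was 3.94, 4.23, 4.35 and 4.19. Leaving out single arrays gave ranges of 3.08 to 3.60, 3.24 to 3.65, 3.27 to 3.47 and 3.28 to 3.47.

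Within an organ, leaving out single arrays moved the median between -0.045 and 0.149 for wild type leaves, - Fe vs. + Fe, between -0.104 and 0.084 for nas4x-1 vs. wild type in leaves at + Fe, and between -0.125 and 0.054 for nas4x-1 roots, - Fe vs. + Fe. It moved between -0.213 and 0.045 for nas4x-1 vs. wild type in roots at + Fe and between -0.0099 and 0.17 for the root interaction. The cause was not tested. The harvest test in roots gave 6 to 14 genes and that in leaves 6 to 11. The leaf to root difference of ndhB in wild type at + Fe lost its call with the study's error model (1.78, adjusted p = 0.0759), without the wild type leaf + Fe array of harvest 3 (0.54, adjusted p = 0.0517) and without the wild type root + Fe array of harvest 2 (0.56, adjusted p = 0.0509). Signals near 16 carry little information on fold changes, which concerns most ndhB and ndhF values and the root signals of 18 genes.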
